A study of Homo sapiens with 9 samples.

Results

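CD44, CD24 and 8 further genes that are used to mark or maintain stem-like tumour cells were followed in PANC-1 cells, an epithelial line from a human pancreatic carcinoma, after a synthetic miR-520f was introduced. The 10 genes were listed by name: CD44, CD24, PROM1, CXCR4, ALDH1A1, ALDH1A3, SOX2, SOX9, KLF4 and MYC. A gene was measured where a probe set of the array carried its symbol alone, and the brightest such probe set over all arrays stood for it. This gave 9 of the 10 genes, of 14232 genes measured in all. SOX2 had no probe set of its own, because its 1 probe set is shared with the overlapping transcript SOX2-OT, so no value is given for it. Each of the 9 measured genes had a single probe set of its own.

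Every group consisted of PANC-1 cells grown in the same medium, and RNA was taken 72 h after transfection. Cells labelled NT received the lipid reagent RNAiMAX alone (n = 3). Cells labelled NC received that reagent with 20 nM of a mirVana negative control mimic (n = 3), and cells labelled miR520 received it with 20 nM of a mirVana miR-520f mimic (n = 3). Mimics are short RNA duplexes, and the silencing complex keeps 1 strand of the duplex as its guide. The replicates are labelled biological, but no label ties them to separate cultures or days, and the p-values therefore rest on the spread among arrays of a group, which may be technical. Each value is a log2 intensity, made by the authors with RMA, and a difference of 1 between groups is a doubling of the intensity. The median value of an array was 4.22 to 4.34. Precision is limited by having 3 arrays in each group.

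A microRNA lowers the amount and the translation of messenger RNAs that pair with its seed, the bases 2 to 8 from its 5′ end. CD44 is a receptor for the matrix sugar hyaluronan, and CD24 is a small, heavily glycosylated surface protein held by a lipid anchor. In pancreatic tumours, cells that carry CD44, CD24 and EPCAM together, cells that carry PROM1 (CD133) with or without CXCR4, and cells with high aldehyde dehydrogenase activity have each been described as tumour-initiating. SOX2, KLF4 and MYC are transcription factors used to reprogramme cells to pluripotency, and SOX9 is a transcription factor of pancreatic progenitors and ducts. CD44 has been reported as a target of miR-373 and miR-520c, relatives of the microRNA used here.

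The mature sequences are shown because the seed of miR-520f differs from that of these relatives. They were taken from RefSeq (build GRCh38.p14), 5′ to 3′, with the seed in capitals. The labels do not say which arm the mimic copies, so both arms of miR-520f are given.
hsa-miR-520f-3p: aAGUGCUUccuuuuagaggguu
hsa-miR-520f-5p: cCUCUAAAgggaagcgcuuucu
hsa-miR-520c-3p: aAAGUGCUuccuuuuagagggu
hsa-miR-373-3p: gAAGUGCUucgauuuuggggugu
hsa-miR-302a-3p: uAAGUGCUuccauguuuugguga

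Both arms of miR-520f lie on the plus strand, the 3p arm at chr19:53682213-53682234 and the 5p arm at chr19:53682173-53682194. miR-520f-3p and miR-520c-3p share a stretch of 21 bases, which begins at base 1 of the former and at base 2 of the latter. Their seeds are therefore shifted by 1 base and share 6 of their bases (AGUGCU). Among 2370 human mature microRNAs in that table, 1 (miR-520f-3p itself) had the seed AGUGCUU. The seed AAGUGCU was held by 12 microRNAs, among them miR-302a to miR-302d, miR-372, miR-373 and miR-520a to miR-520e. Binding sites in the messenger RNAs of the 10 genes were not analysed here.

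CD44 and CD24 fell with miR-520f against both controls, and 0 of the 9 measured genes rose against either. A gene is called changed at an adjusted p under 0.05 (limma, Benjamini-Hochberg over all 14232 genes). Against NT, 2 of 9 were lower and 7 were not called, while 13.1% of all genes were called lower and 14.5% higher. Against NC, 4 of 9 were lower (CD44, CD24, CXCR4 and ALDH1A3) and 5 were not called, while 12.6% of all genes were called lower and 15.4% higher. The 2 genes that were lower in both comparisons stand beside 8.61% of all genes lower in both and 9.37% higher in both. The median log2 fold change of the 9 was -0.13 against NT and -0.23 against NC, where the median over all genes was -0.03 in each comparison. All 9 fold changes had a negative sign in each miR520 comparison. These comparisons share the miR520 arrays, and the share of negative signs among all genes was not counted, so the signs are not read as a result about the set. Among genes with a mean of at least 4, the median log2 fold change was positive, at 0.022 against NT and 0.043 against NC. PROM1, CXCR4, ALDH1A1 and KLF4 lay below that mean. The negative sign was not stable for the genes near 0. PROM1 and KLF4 turned positive against NT when arrays were centred on their median. After a further quantile normalization KLF4 did so against NT and PROM1 against NC. With single arrays left out, ALDH1A1 and KLF4 turned positive against NT, SOX9 against NC and PROM1 against each control.

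CD44 measured 9.05, 9.05 and 9.03 on the NT arrays, 8.48, 8.83 and 8.98 on the NC arrays, and 7.52, 7.43 and 7.47 on the miR520 arrays (probe set 3326635, replicates 1 to 3 in that order). The 3 miR520 arrays lay close together and below every control array. The same separation, all 3 miR520 arrays below all 6 control arrays, was seen for 12.1% of all genes. The log2 fold change of CD44 was -1.57 against NT (SE 0.11, 95% interval -1.81 to -1.33, limma adjusted p = 2.05e-06) and -1.29 against NC (SE 0.11, 95% interval -1.53 to -1.05, limma adjusted p = 7.64e-06). CD44 intensity with miR-520f was therefore 33.7% of that in NT cells and 40.9% of that in NC cells. These values are from whole cultures, so fewer CD44-bearing cells and less CD44 RNA per cell cannot be told apart. CD44 messenger RNA is spliced into many forms, and a single value per gene does not separate them.

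The control mimic itself left CD44 with a log2 fold change of -0.28 against NT (95% interval -0.52 to -0.04), which was not called (limma adjusted p = 0.124). NC replicate 1 was the lowest of the 6 control arrays for CD44. Without it the fold change of NC against NT was -0.14 and that of miR520 against NC was -1.43. Without NC replicate 3, the highest of that group, the NC change against NT was -0.39 and was called (limma adjusted p = 0.0289). In order of level, NT and NC were neighbours that did not differ at the threshold, and miR520 lay below both.

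CD24 measured 8.15, 8.22 and 8.33 on the NT arrays, 7.44, 7.73 and 7.85 on the NC arrays, and 7.01, 6.92 and 7.38 on the miR520 arrays (probe set 4035833). The 3 groups did not overlap, and the share of all genes that separate in this way was not counted. Their narrowest gap, 7.38 in miR520 replicate 3 against 7.44 in NC replicate 1, was between the mimics. All 3 miR520 arrays lay below all 6 control arrays for CD24, as for 12.1% of all genes. The log2 fold change of miR520 was -1.13 against NT (SE 0.13, limma adjusted p = 7.88e-05) and -0.57 against NC (SE 0.13, limma adjusted p = 0.00693). Unlike CD44, CD24 was also called lower with the control mimic than with reagent alone, at -0.56 (95% interval -0.85 to -0.27, limma adjusted p = 0.0146), and it was the 1 gene of the 9 called in that comparison. Of all genes, 8.28% were called lower and 7.00% higher in NC than in NT cells, or 1178 and 996 genes. That balance turned to 928 lower and 1198 higher with arrays centred on the median, under which CD24 remained called. Without NT replicate 3 the CD24 change of NC against NT was -0.51 and was not called (limma adjusted p = 0.0551). Without moderation of the variances, neither the CD24 change against NC (adjusted p = 0.0506) nor that of NC against NT (adjusted p = 0.0895) passed the threshold. RefSeq lists 5 CD24 pseudogenes, and the probe set may take up RNA of such near-identical copies, so the assignment of its signal to CD24 is uncertain.

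**Figure D1:**
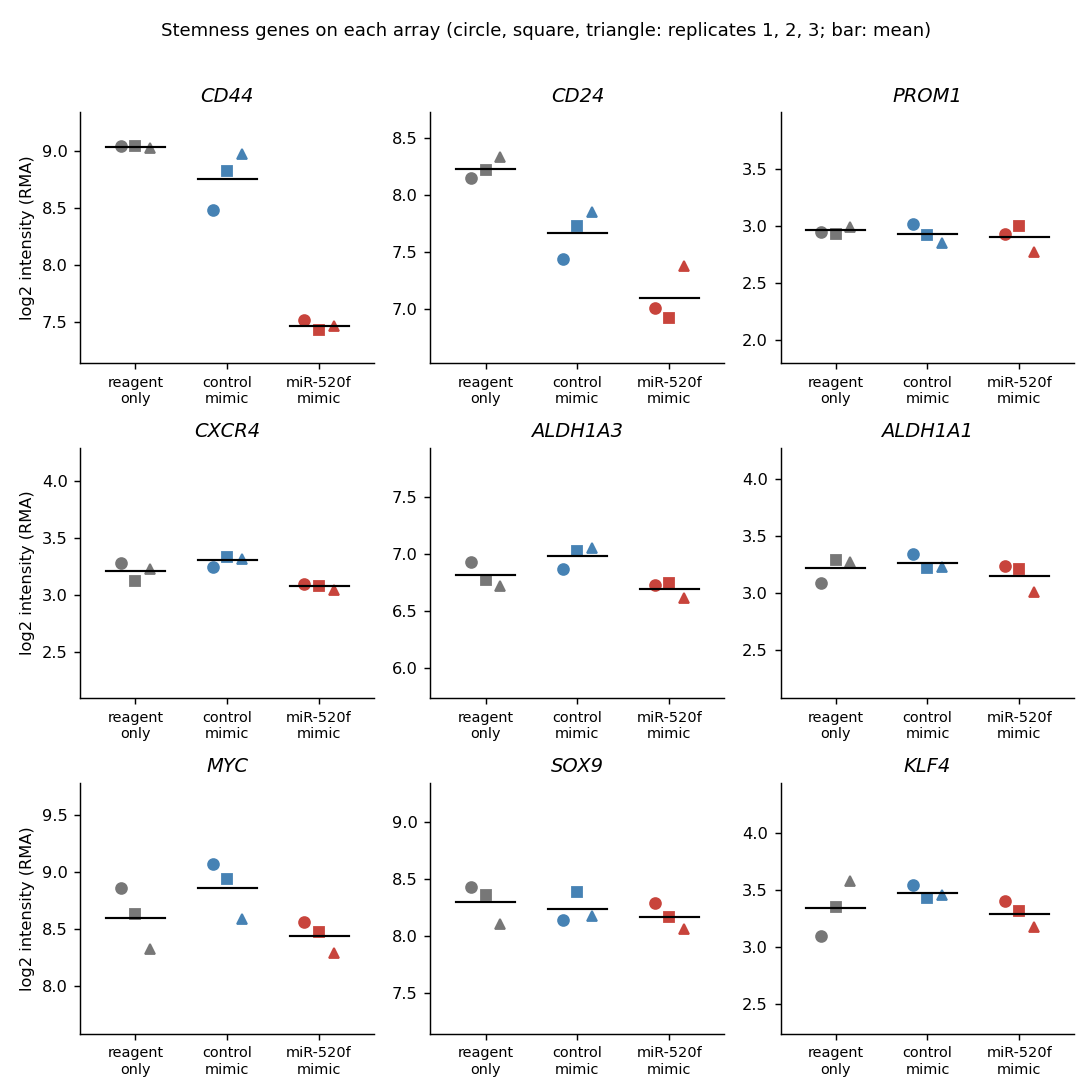
Log2 intensity of the 9 measured genes on each of 9 arrays, in cells given reagent only (NT), the control mimic (NC) or the miR-520f mimic (miR520). Every panel spans 2.2 log2 units, symbols stand for replicate numbers and bars for group means. The CD44 values of the miR520 arrays (7.43 to 7.52) lie below all control values (8.48 to 9.05), and CD24 descends from NT through NC to miR520.

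The fall of CD44 with the miR-520f mimic was set against that of CD24 on each array. Levels of different probe sets are not comparable, so only the change of their difference is read. CD44 minus CD24 lay between 0.69 and 0.90 on the NT arrays, between 1.04 and 1.13 on the NC arrays, and between 0.09 and 0.51 on the miR520 arrays. The 3 ranges did not overlap. Relative to CD24, CD44 was lower in miR520 than in NC cells by a difference of -0.72 and than in NT cells by -0.44, while it was higher in NC than in NT cells by 0.28. Each of these comparisons reached p = 0.1 in a two-sided exact permutation test, the smallest p that 3 arrays against 3 can give, so none can pass 0.05.

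The other surface proteins of the list were dim. PROM1, a pentaspan glycoprotein of membrane protrusions, ranged from 2.77 to 3.02 over all 9 arrays (probe set 2761842), with log2 fold changes of -0.06 against NT and -0.03 against NC. The lower quartile of all probe sets lay between 3.09 and 3.25 on these arrays, so PROM1 stayed at the dim end throughout, where RMA values understate differences. CXCR4, the receptor for the chemokine CXCL12, measured 3.28, 3.13 and 3.23 on NT, 3.25, 3.34 and 3.32 on NC, and 3.10, 3.08 and 3.05 on miR520 arrays (probe set 2578028). Its miR520 arrays lay below all controls, as for 12.1% of all genes, but the groups were close to each other and to the lower quartile. CXCR4 was called lower against NC (log2 fold change -0.23, SE 0.07, limma adjusted p = 0.0276) and not against NT (-0.14, 95% interval -0.29 to 0.02, limma adjusted p = 0.200). The call against NC was lost after a further quantile normalization (-0.18, limma adjusted p = 0.133). It was also lost without any 1 of miR520 replicates 1, 2 and 3 or NC replicates 2 and 3, where the fold change was -0.24 to -0.21 and the limma adjusted p ran from 0.0676 to 0.0899.

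The aldehyde dehydrogenases ALDH1A1 and ALDH1A3 oxidize retinaldehyde to retinoic acid, and both contribute to the enzyme activity by which stem-like cells are sorted. ALDH1A3 measured 6.93, 6.77 and 6.72 on NT, 6.87, 7.02 and 7.05 on NC, and 6.73, 6.74 and 6.61 on miR520 arrays (probe set 3611625). The miR520 values lay below every NC value and overlapped those of NT. ALDH1A3 was called lower against NC (log2 fold change -0.29, SE 0.08, limma adjusted p = 0.0224) and not against NT (-0.12, 95% interval -0.30 to 0.07). The NC level was higher than that of NT by 0.17, which was not called (95% interval -0.01 to 0.36). The call against NC was lost with an intensity trend in the moderation (limma adjusted p = 0.0514) and without miR520 replicate 1 or 3 or NC replicate 2 or 3 (log2 fold changes -0.31 to -0.25, limma adjusted p = 0.0526 to 0.0856). ALDH1A1 was dim, between 3.01 and 3.34 on all arrays (probe set 3209726), and its log2 fold changes of -0.07 and -0.11 against NT and NC were not called.

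Among the transcription factors, 0 of the 3 measured were called in any comparison of the main fit. MYC, which drives ribosome production and growth, measured 8.86, 8.63 and 8.32 on NT, 9.07, 8.94 and 8.59 on NC, and 8.56, 8.47 and 8.29 on miR520 arrays (probe set 3115504). In each group replicate 3 was the lowest array, and replicate 3 of NT (8.32) lay among the miR520 values. The log2 fold change against NC was -0.42 (95% interval -0.75 to -0.09, limma adjusted p = 0.0569), against NT -0.16 (95% interval -0.49 to 0.17), and that of NC against NT 0.26 (95% interval -0.07 to 0.59). The MYC value against NC lay near the threshold and was called under 7 of 18 alternatives. The limma adjusted p was 0.0306 with dim genes filtered out, 0.0443 with an intensity trend and 0.0412 with NC and miR520 alone in the fit. It was 0.0401 without NT replicate 1, 0.0341 without NT replicate 3 and 0.0134 without NC replicate 3 (log2 fold change -0.56). With a replicate block it was 0.0025, although the replicate numbers were not treated as pairs in the main fit. SOX9 ranged from 8.06 to 8.43 over all arrays with overlapping groups (probe set 3733590), and its log2 fold changes were -0.13 against NT (95% interval -0.36 to 0.10) and -0.07 against NC (95% interval -0.30 to 0.16). KLF4 lay at 3.09 to 3.58 (probe set 3219215), with log2 fold changes of -0.05 and -0.18 in the same order. For the uncalled genes the intervals bound the change, and they do not show that it was absent.

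**Figure D2:**
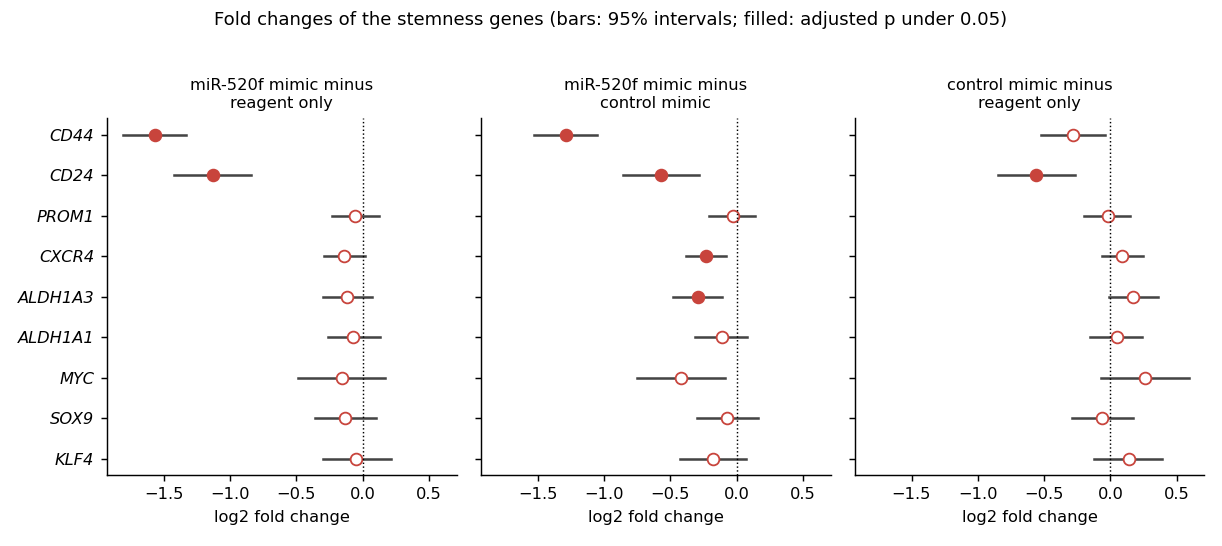
Log2 fold changes of the 9 measured genes in the 3 comparisons, with 95% intervals from limma as bars and filled points at an adjusted p under 0.05. CD44 (-1.57 and -1.29) and CD24 (-1.13 and -0.57) are filled in both miR520 comparisons, and CD24 (-0.56) alone is filled for the control mimic against reagent alone.

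The stretches just upstream of the CD44 and CD24 genes are shown because these genes fell in both comparisons. They are the 250 bases before the start from RefSeq (GRCh38.p14), on the strand of the gene, with matches to GGGCGG or its reverse complement CCGCCC, the GC box bound by SP and KLF factors, in capitals. CD44 is at chr11:35138921-35139170 on the plus strand, and the first of 3 listed CD24 starts is at chr6:106975628-106975877 on the minus strand.
CD44: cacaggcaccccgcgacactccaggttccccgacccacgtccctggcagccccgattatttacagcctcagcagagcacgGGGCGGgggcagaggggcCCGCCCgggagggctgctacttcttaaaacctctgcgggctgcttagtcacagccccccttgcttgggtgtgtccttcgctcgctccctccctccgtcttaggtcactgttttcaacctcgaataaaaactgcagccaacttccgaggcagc
CD24: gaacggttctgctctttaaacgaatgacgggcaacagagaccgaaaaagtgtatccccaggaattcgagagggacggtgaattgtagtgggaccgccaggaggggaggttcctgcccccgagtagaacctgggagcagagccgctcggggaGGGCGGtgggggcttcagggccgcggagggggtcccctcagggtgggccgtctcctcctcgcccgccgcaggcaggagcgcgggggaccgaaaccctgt

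Upstream windows were found for 8 of the 10 listed genes, which include the unmeasured SOX2 and leave out SOX9 and MYC. Taking the first listed start of each, 6 of 8 held a GC box. Of 35116 windows of human genes 42.6% did, but these may count several starts of a gene, so the shares are not strictly comparable. Starts of a gene can differ, and the window of CD24 start 2 held 0 matches. The CD44 window held 2 matches and that of CD24 held 1, whereas ALDH1A3 held 6, KLF4 held 4 and CXCR4 held 3. The E-box CACGTG, which MYC and MAX bind, was in the window of KLF4 alone among the 8 (6.3% of all windows). The AP-1 element TGACTCA, searched on both strands, was in 0 of the 8 (4.2% of all windows). GC content ran from 38.4% for ALDH1A1 to 82.4% for ALDH1A3, with 62.4% for CD44 and 65.6% for CD24, beside a median of 58.0%.

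Genes whose pattern over the 9 arrays was most like that of CD44 were sought among 3232 genes with group means spanning at least 0.5. The highest Pearson r were those of C12orf75 (0.996), the chromatin remodelling subunit SMARCC2 (0.996), the giant scaffold protein AHNAK2 (0.996), the Golgi transport protein GOLT1B (0.996) and DAZAP2 (0.994). All 5 were lower against both controls, a direction set by choosing them for likeness to CD44, so it is no separate finding. The genes most like CD24 were chosen in the same way. AHNAK2 fell furthest, by log2 fold changes of -2.17 against NT and -1.69 against NC, and SMARCC2 least, by -0.86 and -0.67. For CD24 the 3 most alike were the potassium channel KCNMA1 (r = 0.968), the fatty acid desaturase FADS2 (0.967) and ITFG1 (0.966). KCNMA1 went from 8.17 ± 0.02 in NT through 7.60 ± 0.14 in NC to 6.98 ± 0.02 in miR520 cells (SD, n = 3 each). FADS2 and ITFG1 were lower against NC, with log2 fold changes of -0.35 and -0.34, and these calls were lost under 8 and 7 of 18 alternatives. The FADS2 call was lost without NC replicate 2 or 3 or miR520 replicate 2 or 3 (limma adjusted p = 0.0547 to 0.132), and the ITFG1 call without NC replicate 2 or 3 or miR520 replicate 1 or 2 (limma adjusted p = 0.0626 to 0.0895). These coefficients describe arrays that share the 3 treatments, and no other of the 9 genes spanned 0.5 between group means.

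**Figure D3:**
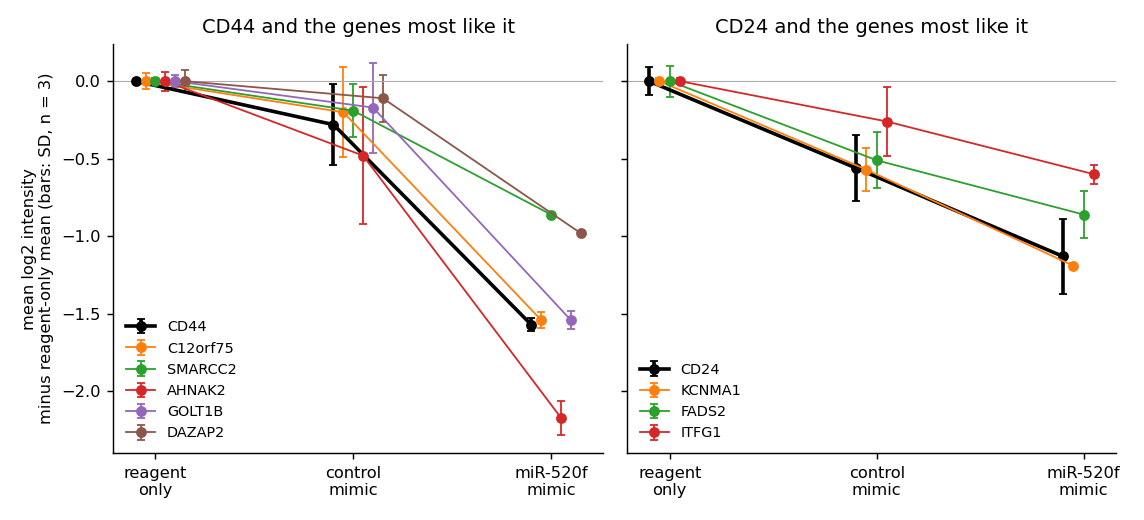
Group means relative to the NT mean (log2 intensity, error bars SD, n = 3) of CD44 with the 5 genes most like it and of CD24 with the 3 most like it. CD44 and its companions drop mainly between the NC and miR520 groups, while CD24 and KCNMA1 drop at both steps (-0.56 and -0.57 for CD24).

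Genes around CD44 and the other stemness genes were counted list by list, and each count stands beside the share of all genes called: 14.5% higher and 13.1% lower against NT, and 15.4% higher and 12.6% lower against NC. Whether a list differs from that background was not tested. Several genes named below were also called between NC and NT, and the part of the control mimic in their changes was not tested. Log2 fold changes of NC against NT were -1.05 for JAG1, -0.82 for L1CAM, -0.70 for MMP14, -0.66 for ALDH2 and -0.57 for GRK2. They were -0.47 for NF2, -0.45 for ALDH3B1, -0.41 for CD68, -0.40 for SLC19A1, -0.37 for LGR4, -0.28 for CD151 and -0.27 for NOTCH3. FBXW7 (0.31), USP28 (0.45), RXRB (0.45) and KLF10 (0.27) were higher in NC. Of 19 measured genes of hyaluronan turnover and CD44 function, 5 rose, 3 fell and 11 were without a call against NT, and 5 rose, 2 fell and 12 were without a call against NC. The median log2 fold changes were -0.02 and -0.04, and the counts of lower genes were near the background. Ezrin, EZR, which ties the CD44 tail to actin, fell by log2 fold changes of -1.43 against NT and -1.34 against NC, and merlin, NF2, a relative of ezrin that also binds CD44, fell by -1.51 and -1.04. The hyaluronan synthase HAS2 rose at low level, from 2.67 ± 0.06 in NT and 2.77 ± 0.06 in NC to 3.25 ± 0.04 (SD, n = 3 each). The hyaluronidase CEMIP2 rose by 0.58 and 0.67. The remaining genes called against both controls, named after their values were seen, were ESRP1, a splicing factor that acts on CD44 exons (0.34 and 0.26), and MMP14, a protease that cleaves CD44 (0.33 and 1.03). ESRP1 was dim, with means of 3.01 in NT, 3.09 in NC and 3.35 in miR520 cells, near the lower quartile of all probe sets (3.09 to 3.25). The ESRP1 call against NC was lost without miR520 replicate 1 or 2 or NC replicate 3 (limma adjusted p = 0.0504 to 0.0536). The MMP14 call against NT was lost under 8 of 18 alternatives, among them those without NT replicate 2 or 3 or any 1 of the miR520 arrays (limma adjusted p = 0.0616 to 0.122).

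Further enzymes and proteins of aldehyde oxidation and the retinoic acid pathway changed in both directions. Of 14 other aldehyde dehydrogenases, 4 rose, 1 fell and 9 were without a call against NT, and 3 rose, 2 fell and 9 were without a call against NC (medians -0.01 and 0.03). ALDH7A1, an enzyme of lysine breakdown, rose by 0.97 and 1.45, and mitochondrial ALDH2, the main acetaldehyde-clearing enzyme, by 0.52 and 1.19. The ALDH2 means were 5.68 in NT, 5.02 in NC and 6.20 in miR520 cells. ALDH3A2, which acts on fatty aldehydes, rose by 0.28 and 0.39, and ALDH3B1 fell, with log2 fold changes of -0.99 and -0.54. In the retinoic acid pathway 1 of 16 genes rose and 5 fell against NT, and 1 rose and 4 fell against NC, with 10 and 11 not called (medians -0.06 and -0.04). RDH10, which makes retinaldehyde, rose by 0.52 and 0.51. DHRS3, which reduces retinaldehyde back to retinol, fell (-0.66 and -0.75), as did the retinoic acid binding protein CRABP2 (-0.72 and -0.50), the nuclear receptor RXRB (-0.76 and -1.22) and, named after its values were seen, the retinoic acid hydroxylase CYP26B1 (-0.48 and -0.43). The CRABP2 call against NC was lost without miR520 replicate 3 (-0.44, limma adjusted p = 0.0623) and in the unmoderated fit (adjusted p = 0.0751).

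Around CXCR4, 0 of 11 measured ligands, receptors and regulators were called against both controls with limma. Against NT 2 rose, 1 fell and 8 were not called, and against NC 1 rose, 0 fell and 10 were not called (medians -0.02 and 0.03). The receptor kinase GRK2 rose against NC by 0.82 and had a log2 fold change of 0.25 against NT (limma adjusted p = 0.118; called at 0.0438 without NC replicate 1). The ubiquitin ligase ITCH, which sends CXCR4 to degradation, rose against NT by 0.44 and had a value of 0.34 against NC (limma adjusted p = 0.0543; called at 0.0142 without NC replicate 3). The ITCH call against NT was lost without NT replicate 1 or miR520 replicate 3 (limma adjusted p = 0.0622 and 0.0620). It was also lost in the unmoderated fit (adjusted p = 0.0718).

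Relatives of SOX9 and KLF4 were called in part. Of 16 other SOX genes, 1 rose and 0 fell against NT and 2 rose and 0 fell against NC, with 15 and 14 not called (medians -0.01 in both). SOX4, a factor downstream of TGF-beta, rose from 6.90 ± 0.15 in NT and 6.67 ± 0.08 in NC to 7.33 ± 0.03 (SD, n = 3 each). Of 15 other KLF genes, 2 rose, 2 fell and 11 were without a call against NT, and 3 rose, 2 fell and 10 were without a call against NC (medians 0.05 and -0.10). KLF10 rose by 0.70 and 0.43, while KLF7 (-0.66 and -0.86) and KLF13 (-0.81 and -0.54) fell.

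Partners and regulators of MYC were called in both directions. Of 18 measured genes of the MYC network, 4 rose, 5 fell and 9 were without a call against NT, and 3 rose, 3 fell and 12 were without a call against NC (medians -0.05 and -0.15). MXD1, which competes with MYC for MAX, fell by log2 fold changes of -1.37 and -1.60, and its relative MXI1 by -0.47 and -0.47. FBXW7, the ubiquitin ligase subunit that marks MYC for degradation, rose by 0.95 and 0.64, and USP28, a deubiquitinase that opposes it, by 0.96 and 0.50. RUVBL1, an ATPase that binds MYC, was lower (-0.29 and -0.41, named after its values were seen). Its call against NT was lost under 9 of 18 alternatives, among them those without any 1 of the NT or miR520 arrays (limma adjusted p = 0.0508 to 0.117). Of 32 listed MYC target genes, 22 were measured. Of these 22, 3 rose, 1 fell and 18 were without a call against NT, and 3 rose, 3 fell and 16 were without a call against NC (medians 0.15 and -0.01). NPM1, counted as without a call, had group means of 2.63 to 2.82, below the lower quartile of all probe sets (3.09 to 3.25). At that level a lack of a call says little. The shares of target genes that rose against NT and NC and that fell against NC were near those of all genes. The 1 called against both was the folate carrier SLC19A1 (0.34 and 0.74). Its call against NT was lost under 7 of 18 alternatives, including those without any 1 of the NT arrays or miR520 replicate 2 or 3 (limma adjusted p = 0.0537 to 0.120).

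Of 18 measured pluripotency genes, 4 rose, 0 fell and 14 were without a call against NT, and 3 rose, 1 fell and 14 were without a call against NC (medians 0.00 and -0.05). The 3 called against both controls were the orphan nuclear receptor NR6A1 (2.73 and 2.36), the DNA methyltransferase DNMT3B (1.65 and 1.81) and the zinc finger factor SALL4 (1.53 and 1.65). Of 27 other tumour stem cell markers, 6 rose, 8 fell and 13 were without a call against NT, and 6 rose, 6 fell and 15 were without a call against NC (medians -0.09 and -0.03). EPCAM, the adhesion protein that is read together with CD44 and CD24, rose by 1.57 and 1.68, opposite in sign to both. The receptor LGR4 rose by 1.27 and 1.64. The ectonucleotidase NT5E (CD73) fell from 10.23 ± 0.05 in NT and 10.50 ± 0.03 in NC to 8.52 ± 0.16 (SD, n = 3 each). The protein C receptor PROCR fell by log2 fold changes of -1.26 and -1.15. Also called against both, and named after their values were seen, were the RNA-binding protein MSI1 (0.96 and 0.84), E-cadherin, CDH1 (1.07 and 1.15), the tetraspanin CD151 (-0.62 and -0.34) and the adhesion molecule L1CAM (-1.20 and -0.38). The L1CAM call against NC was lost under 11 of 18 alternatives (limma adjusted p = 0.0538 to 0.167), among them those without NT replicate 1 or 2, NC replicate 2 or 3 or any 1 of the miR520 arrays.

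In the Notch, Hedgehog and Wnt pathways, which support stem cells in many tissues, 7 of 27 genes rose, 3 fell and 17 were without a call against NT, and 7 rose, 1 fell and 19 were without a call against NC (medians -0.01 and 0.03). The 7 of 27 that rose stand beside 14.5% and 15.4% of all genes, and the 3 and 1 that fell beside 13.1% and 12.6%. The Notch target HEY1 rose by 0.78 and 0.93, the Hedgehog effector GLI1 by 0.51 and 0.76 and the Wnt-controlled repressor TCF7L1 by 0.62 and 0.85. The Notch ligand JAG1 rose by 0.37 and 1.42, from 6.19 ± 0.19 in NT and 5.14 ± 0.14 in NC to 6.57 ± 0.03 (SD, n = 3 each). Its call against NT was lost without NT replicate 3 or miR520 replicate 1 or 3 (limma adjusted p = 0.0544 to 0.0628), and in the unmoderated fit (adjusted p = 0.0643). The receptor NOTCH3 was also higher (0.27 and 0.55, named after its values were seen).

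**Figure D4:**
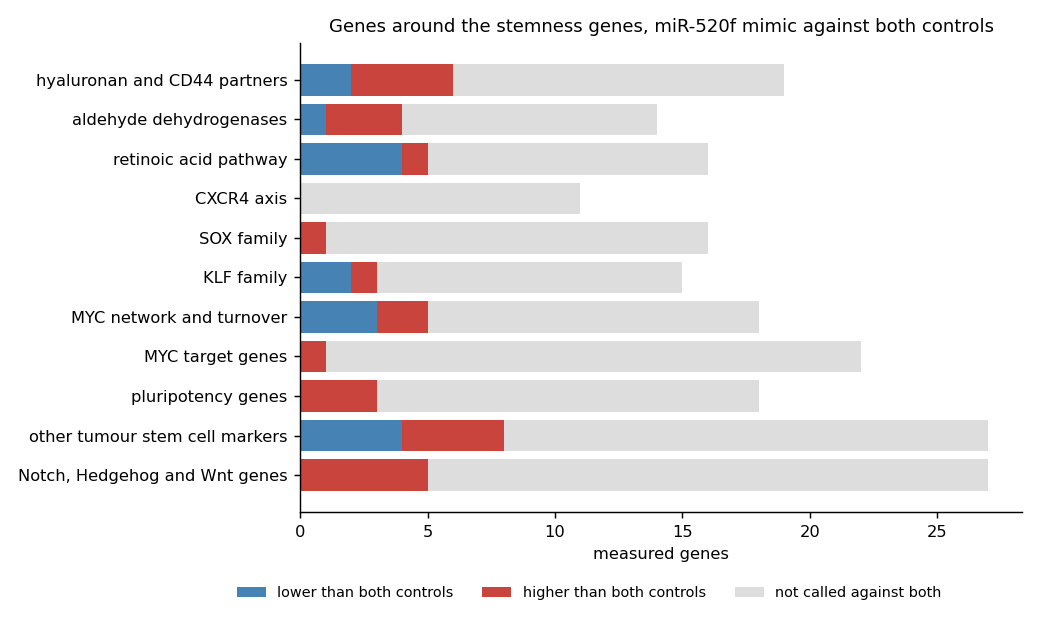
Number of measured genes in 11 lists around the stemness genes that were called lower than both controls, higher than both controls, or neither, in miR520 cells. The list of other tumour stem cell markers holds 4 of each direction among 27, and 0 of 11 genes of the CXCR4 axis were called against both.

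The identity of the cells was checked with marker genes. The epithelial keratin KRT8 was bright in all groups, at group means of 11.34 to 11.62. KRT7 (3.46, 3.50 and 3.46 in NT, NC and miR520 cells) and CFTR (3.09, 3.10 and 3.03), of the same list of duct markers, were dim in all groups. All measured endothelial, acinar and endocrine markers had group means of at most 3.58, the highest being CHGA in NC cells, and 0 of these 11 genes were called in any comparison. Of 6 fibroblast markers, COL1A1 was bright (8.17, 7.58 and 7.78 in NT, NC and miR520 cells) and was lower in NC than in NT cells (limma adjusted p = 0.0416), and the other 5 had group means of at most 3.74. Among 5 immune markers, PTPRC, present on all leukocytes, stayed between 2.99 and 3.08. CD68, a lysosomal protein found beyond macrophages, was the 1 immune marker called, and fell by log2 fold changes of -1.31 and -0.90. The mean level of those 5 markers was 4.51 to 4.68 on NT, 4.50 to 4.59 on NC and 4.19 to 4.39 on miR520 arrays. Of 6 duct markers, 2 fell against both controls, KRT19 (-0.75 and -0.68) and MUC1 (-1.35 and -1.01), named after their values were seen. KRT18 of the same list rose against NT (limma adjusted p = 0.00879) and was not called against NC (limma adjusted p = 0.0569). The part of these marker changes in the results above was not tested.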

How the data were processed

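Affymetrix arrays of 9 PANC-1 samples were used, 3 per group, grouped by the sample titles. The authors deposited log2 values for 22011 probe sets; RMA, Partek 6.6 and build hg18 are named per the submitters' processing notes, without settings or any filter. Of these probe sets, 14432 carry 1 gene symbol in the platform annotation, 2408 carry several and 5171 are unnamed here. Keeping the brightest single-symbol probe set of a gene left 14232 genes. limma 3.58.1 (R 4.3.3) estimated each group's mean from the 9 arrays together, leaving 6 residual degrees of freedom, with empirical Bayes moderation and Benjamini-Hochberg adjustment over all genes, and was tested on simulated data. The series' design text names ANOVA contrasts against each control, for which an unmoderated fit was an alternative. The genes and lists were chosen with earlier results of these data known. Named from each list were up to 4 genes called against both controls, by the smaller fold change, or else the 2 largest, plus the genes most like CD44 and CD24 and the brightest of each cell type's markers. RMA compresses differences of dim probe sets, and no detection calls were used. Alternatives were scaling, a filter at a mean of 4, moderation, groups in the fit, a replicate block, probe set choice and single arrays left out.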

Additional observations from a re-analysis of the deposited data

How the results depend on the processing

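For CD44, both miR520 falls were called under all 18 alternatives, with log2 fold changes of -1.64 to -1.51 against NT and -1.43 to -1.18 against NC. Over the named genes beyond the 9 stemness genes and the cell type markers, 62 calls were lost, 4 gained and 1764 kept their side and sign, each count being over genes, comparisons and alternatives. The calls of the cell type markers were not followed through the alternatives. In the unmoderated fit, 1287 genes instead of 2174 differed between NC and NT, 0 instead of 1 of the stemness genes did, and 1 instead of 2 was called against both controls. There CD24 missed the threshold against NC (adjusted p = 0.0506) and for NC against NT (0.0895). With single arrays left out, 1394 to 2181 genes differed between NC and NT, the lowest without NT replicate 2. Of the stemness genes, 2 to 5 were called against NC (2 without miR520 replicate 1, miR520 replicate 3 or NC replicate 2) and 0 to 2 between NC and NT (0 without NT replicate 3, 2 without NC replicate 3). The log2 fold changes that changed sign were all near 0 and not called. With arrays centred on the median, PROM1 was at 0.01 against NT and 0.02 for NC against NT, and KLF4 at 0.02 against NT. After a further quantile normalization, PROM1 was at 0.01 against NC and KLF4 at 0.01 against NT. With single arrays left out, PROM1 ran from -0.11 to 0.01 against NT, from -0.09 to 0.03 against NC and from -0.07 to 0.01 for NC against NT. ALDH1A1 ran from -0.13 to 0.01 against NT and from -0.02 to 0.08 for NC against NT, SOX9 from -0.12 to 0.01 against NC and from -0.16 to 0.01 for NC against NT, and KLF4 from -0.17 to 0.07 against NT. The filter at a mean of 4 removed PROM1, CXCR4, ALDH1A1 and KLF4. The replicate numbers were not treated as pairs, since not every same-numbered pair of arrays deviated together: the correlations were -0.026 to 0.205, with 4 of 9 over 0.1, and 5 of 9 arrays correlated best with their own number. All correlations among arrays numbered 2 and among those numbered 3 were positive (0.079 to 0.205). Whether the numbers mark a shared effect was not tested. With the replicate block, 4060, 4159 and 2297 genes were called in place of 3927, 3996 and 2174 (miR520 against NT, miR520 against NC, NC against NT), and MYC became called against NC (adjusted p = 0.0025). The cause of these changes was not tested.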
